A study of Mus musculus with 50 samples.

Results

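Calmodulin, the calcium/calmodulin-dependent protein kinases (CaM kinases) and the calmodulin-dependent phosphatase calcineurin were described here by the chromatin accessibility of the genes Calm3, Camk2a, Camk2b, Camk2d, Camk2g, Camk4, Ppp3ca, Ppp3cb and Ppp3r1. A peak of the ATAC-seq count table was assigned to a gene where it overlapped the gene's span or lay within 2 kb of it in the GRCm38 build. In this way 180 of 144465 peaks belonged to these 9 genes, of 29925 annotated genes with at least 1 peak. Ppp3ca held 60 of them, Camk4 27, Camk2b 23, Camk2d 20, Camk2a 19, Camk2g 10, Ppp3cb 9, Ppp3r1 9 and Calm3 3. Their median width was 1564.5 bp against 1505 bp over all peaks, and 59 of them (32.8%) were called in all 10 groups of libraries against 37.9% of all peaks.

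ATAC-seq libraries came from neuronal nuclei, sorted by NeuN staining, of the ventral hippocampus. The mice were males of the inbred strain C57BL/6JRj, and the labels name no transgene or drug for any group, only the freezing of the tissue in hexane. Mothers of 1 commercial breeding population had been moved while pregnant to 5 rearing facilities (RF1 to RF5), and their sons were killed either in the facility at 8 weeks of age (TP1) or at 14 weeks, after transfer to 1 test laboratory (TP2). Each of the 10 groups had 5 libraries, 1 mouse each, and the mice of TP2 were littermates of those of TP1. Amplification and sequencing ran as 1 batch per time point, so time point and sequencing batch cannot be told apart, and levels are compared here between facilities within a time point.

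Total counts in peaks ranged from 33663505 to 77396321 per library at TP1 and from 5111223 to 36401717 at TP2, and 0.184% to 0.210% of them fell in the 180 peaks. Over abundant peaks, 20 of 100 pairs of libraries of 1 group differed by no more than sampling noise, and so did 7 of 250 pairs from different facilities at TP2. At TP2 the libraries RF1 replicate 3, RF1 replicate 5 and RF2 replicate 5 lay apart from their groups at several of these genes, and the counts of peaks and genes at TP2 are also given without them. At some genes, replicate 5 of RF1 and of RF2 had levels near those of RF5, as described among the flagged results. Peaks within 2 kb of the start were found for 5 of 5 neuronal marker genes and 4 of 4 inhibitory neuron markers, but also for 4 of 4 astrocyte, 5 of 6 oligodendrocyte and 4 of 5 microglial markers. Of 3 endothelial markers, 1 had such a peak (0.488 to 2.34 CPM, that is counts scaled to equal library totals), while Pecam1 and Flt1 had none, and neither had the oligodendrocyte marker Mog and the microglial marker Cx3cr1.

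When calcium enters a neuron through NMDA receptors and voltage-gated channels, it binds calmodulin, and the loaded calmodulin switches on both kinases and a phosphatase. CaM kinase II is a ring of subunits encoded by Camk2a, Camk2b, Camk2d and Camk2g, is very abundant at excitatory synapses of the hippocampus and is needed for long-term potentiation, while CaM kinase IV, encoded by Camk4, works mainly in the nucleus, where it phosphorylates CREB. Calcineurin consists of a catalytic subunit, encoded by Ppp3ca or Ppp3cb in the brain, and a regulatory subunit encoded by Ppp3r1, and it takes part in long-term depression and in moving NFAT factors into the nucleus.

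The starts of 4 of these genes are shown because their peaks were among those followed below. Each sequence is from RefSeq (GRCm38.p6) and runs from 250 bases before the annotated start to 30 bases after it, 5′ to 3′ on the strand of the gene. Capitals mark matches, on either strand, to GGGCGG (the GC box, bound by Sp1-type factors) or TGACG (the core of the cAMP response element TGACGTCA, the site of CREB).
Camk2d: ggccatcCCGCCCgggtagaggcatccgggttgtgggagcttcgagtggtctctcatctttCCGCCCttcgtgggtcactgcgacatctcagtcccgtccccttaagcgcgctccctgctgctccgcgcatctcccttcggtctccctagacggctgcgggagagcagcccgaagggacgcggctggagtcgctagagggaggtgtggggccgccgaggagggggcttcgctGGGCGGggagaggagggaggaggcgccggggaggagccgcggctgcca
Ppp3r1: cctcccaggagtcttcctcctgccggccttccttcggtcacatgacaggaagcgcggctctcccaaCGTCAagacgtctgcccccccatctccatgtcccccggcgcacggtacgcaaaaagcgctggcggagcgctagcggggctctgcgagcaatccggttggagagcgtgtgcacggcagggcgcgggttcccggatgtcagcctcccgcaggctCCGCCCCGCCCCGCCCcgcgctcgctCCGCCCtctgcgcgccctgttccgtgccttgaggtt
Ppp3cb: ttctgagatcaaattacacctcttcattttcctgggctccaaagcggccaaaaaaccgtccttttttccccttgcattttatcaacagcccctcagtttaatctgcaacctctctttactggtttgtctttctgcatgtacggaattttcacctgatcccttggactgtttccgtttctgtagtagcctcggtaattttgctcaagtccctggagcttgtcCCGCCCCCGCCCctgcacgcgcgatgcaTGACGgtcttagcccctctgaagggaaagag
Calm3: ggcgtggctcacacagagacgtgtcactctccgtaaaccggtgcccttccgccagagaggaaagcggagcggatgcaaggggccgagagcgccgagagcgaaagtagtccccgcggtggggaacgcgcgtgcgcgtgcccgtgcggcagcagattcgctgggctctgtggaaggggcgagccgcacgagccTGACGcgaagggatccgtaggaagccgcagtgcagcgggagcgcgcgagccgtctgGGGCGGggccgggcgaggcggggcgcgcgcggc
The first is from Camk2d (chr3:126596701-126596980, + strand), followed by Ppp3r1 (chr11:17159048-17159327, + strand), Ppp3cb (chr14:20546544-20546823, - strand) and Calm3 (chr7:16924003-16924282, - strand). Each of these stretches lay inside a peak of its gene. In 300 bases around the start, Camk2d had 3 GC boxes and no TGACG, Ppp3r1 4 and 1, Ppp3cb 2 and 1, and Calm3 1 and 1. The start of Camk2b, on the - strand of chromosome 11, had 3 GC boxes and no TGACG. Overlapping matches were counted separately. None of the 5 starts held TGACGTCA, the TATA box TATAAA or the E-box motif CACGTG. Of 32851 RefSeq promoters of the same length, 35.7% held a GC box, 20.8% TGACG, 1.79% TGACGTCA, 13.6% TATAAA and 7.15% CACGTG. GC content was 77.3% for Camk2b, 72.0% for Calm3, 70.7% for Ppp3r1, 70.3% for Camk2d and 51.0% for Ppp3cb, against a median of 52.7% over all promoters.

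The first question was whether accessibility at these genes depended on the rearing facility. At TP1, 110 of the 180 peaks (61.1%) differed between facilities by edgeR's quasi-likelihood F-test at an adjusted p below 0.01, close to the 59.1% of all peaks tested. At TP2, 48 did (26.7%), against 30.8% of all peaks. Differences between facilities changed from TP1 to TP2, by the interaction of facility and time point, at 101 peaks (56.1%) against 54.4% of all peaks. All adjusted p-values given here come from this tool with Benjamini-Hochberg adjustment over all peaks or all genes tested, and all 180 peaks passed the filter on low counts at both time points. As the assay reads sorted nuclei in bulk, a lower count can mean fewer nuclei with the site open or a less open site in each, which cannot be told apart.

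Differentially accessible regions (DARs), peaks that in 1 or more of the 10 pairs of facilities passed an adjusted p of 0.01 and changed by 0.5 or more in either direction on the log2 scale, made up a smaller share of these peaks than of the table. They numbered 46 (25.6%) against 38.6% of all peaks at TP1, and 20 (11.1%) against 21% at TP2. Most involved RF1 at TP1, with 23 DARs against RF4 (12.8%, against 20.1% of all peaks), 20 against RF5 (11.1%, against 22.4%), 18 against RF3 (10%, against 20.1%) and 2 against RF2 (1.11%, against 4.28%). All 23 peaks that differed from RF4 were higher in RF1, as were 17 of 20 for RF5 and 15 of 18 for RF3. At TP2, RF1 and RF3 differed at 12 peaks (6.67%, against 10.1% of all peaks) and RF3 and RF4 at 10 (5.56%, against 11.1%), while RF1 and RF4, RF2 and RF4, RF2 and RF5, and RF3 and RF5 had none. Over all peaks, the share of DARs in these last 4 pairs was between 0.263% and 0.957%.

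The counts at TP2 rested on few libraries. Without RF1 replicate 3, RF1 replicate 5 and RF2 replicate 5, 94 peaks depended on the facility at TP2 and 44 were DARs, while 49.5% and 36.1% of all peaks did so. Leaving out libraries that lie apart narrows the spread within groups, so this rise follows at least in part from the choice and is no support for the calls. With near-identical libraries summed, the counts at TP2 fell to 17 and 12, and the shares of all peaks to 14.99% and 13.49%.

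**Figure D1:**
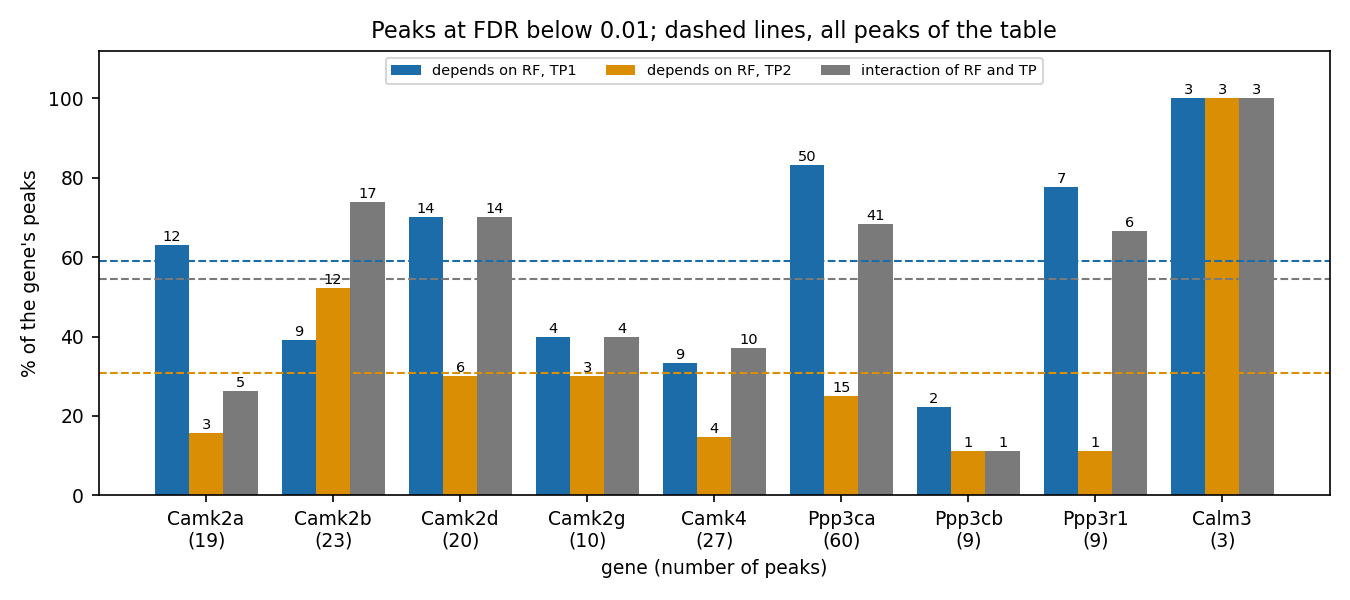
Percentage of each gene's peaks with an adjusted p below 0.01 for a difference between facilities at TP1 (blue), at TP2 (orange) and for the interaction of facility and time point (grey), with the number of peaks on each bar and dashed lines at the share of all peaks. All 3 peaks of Calm3 passed each test, while 50 of the 60 peaks of Ppp3ca passed at TP1 and 15 at TP2.

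The genes differed in how many of their peaks passed. The largest catalytic gene, Ppp3ca, had 50 of 60 peaks depending on the facility at TP1, Camk2d 14 of 20, Ppp3r1 7 of 9 and Camk2a 12 of 19. Ppp3cb had only 2 of 9, Camk4 9 of 27, Camk2b 9 of 23 and Camk2g 4 of 10. At TP2 the order was different, with Camk2b at 12 of 23 and Calm3 at 3 of 3, but Ppp3ca at 15 of 60, Ppp3r1 at 1 of 9 and Camk2a at 3 of 19. The DARs of Camk2d numbered 13 at TP1 and 6 at TP2, whereas those of Ppp3ca numbered 11 and 0.

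To give 1 value per gene and library, counts were summed over the peaks of each gene, for every annotated gene, and scaled to equal totals of summed counts (CPM) with TMM factors. Summed counts depended on the facility for 7 of the 9 genes at TP1 and 8 at TP2, with an interaction for 8, against 79.6%, 60.3% and 79.1% of all genes. The exceptions were Camk2b and Camk2g at TP1 (adjusted p = 0.131 and 0.306), Ppp3cb at TP2 (0.365) and Camk2g for the interaction (0.0469). Without the 3 libraries of TP2 that lay apart, 8 genes depended on the facility at TP2 and 9 showed an interaction, against 79.0% and 83.4% of all genes. Per kb of peak, the median level at TP1 was 18.8 CPM for Calm3, 8.89 for Camk2a, 7.38 for Camk2b, 5.58 for Camk2g, 4.07 for Ppp3r1, 3.55 for Ppp3ca, 3.17 for Ppp3cb, 2.75 for Camk4 and 2.35 for Camk2d. At TP2 the order of the genes was the same, from 16.3 CPM per kb for Calm3 to 2.70 for Camk2d.

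Each facility was then set against the mean of the other 4. RF1 at TP1 had 6 of the 9 genes higher (Camk2a, Camk2d, Camk4, Ppp3ca, Ppp3cb and Ppp3r1) and Calm3 lower, where 64.6% of all genes passed. RF5 at TP1 was the other way round, with the same 6 genes lower and Calm3 higher, against 29.0% of all genes. RF2 had only Ppp3ca higher (1.32% of all genes), RF3 had Calm3 higher and Camk2a, Ppp3ca and Ppp3r1 lower (26.1%), and RF4 had Camk2a, Ppp3r1 and Calm3 lower (40.9%). The contrasts share libraries, since each facility is part of the mean that the others are compared with.

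At TP2 other facilities stood on the high side. In RF3, Camk2a, Camk2d, Camk4, Ppp3ca and Ppp3r1 were higher and Calm3 lower, where 41.4% of all genes passed, and the same held in RF5, where 20.6% passed. RF4 had Calm3 higher and Camk2a, Camk2d, Ppp3ca and Ppp3r1 lower (32.4%). RF1 had Camk2b and Calm3 higher and Camk2d and Camk4 lower (19.5%), and RF2 had only Calm3 higher (3.11%).

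These counts depended on scaling. When the summed counts were scaled by the library sizes and TMM factors of the peak table instead, the median of all genes moved from 0.02 to -0.10 in RF4 at TP1 and from 0.01 to -0.09 in RF3 at TP2, on the log2 scale. On that scale 8 of the 9 genes were lower in RF4 at TP1 and none was higher, with Camk4 alone not passing, where 43.9% of all genes passed. In RF3 at TP2, Camk2d, Camk4 and Ppp3ca were higher and Calm3, Camk2b and Camk2g lower (44.5% of all genes). RF1 at TP1 kept its 6 higher genes, whereas Calm3 no longer passed (62.5%). RF1 at TP2 had Calm3, Camk2a, Camk2b and Camk2g higher and only Camk4 lower (26.3%), RF5 at TP1 no longer had Ppp3cb and Ppp3r1 lower (30.8%), and RF3 at TP1 lost Camk2a as lower and gained Camk2b as higher (30.1%). In the other 4 contrasts the same genes passed on both scales.

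**Figure D2:**
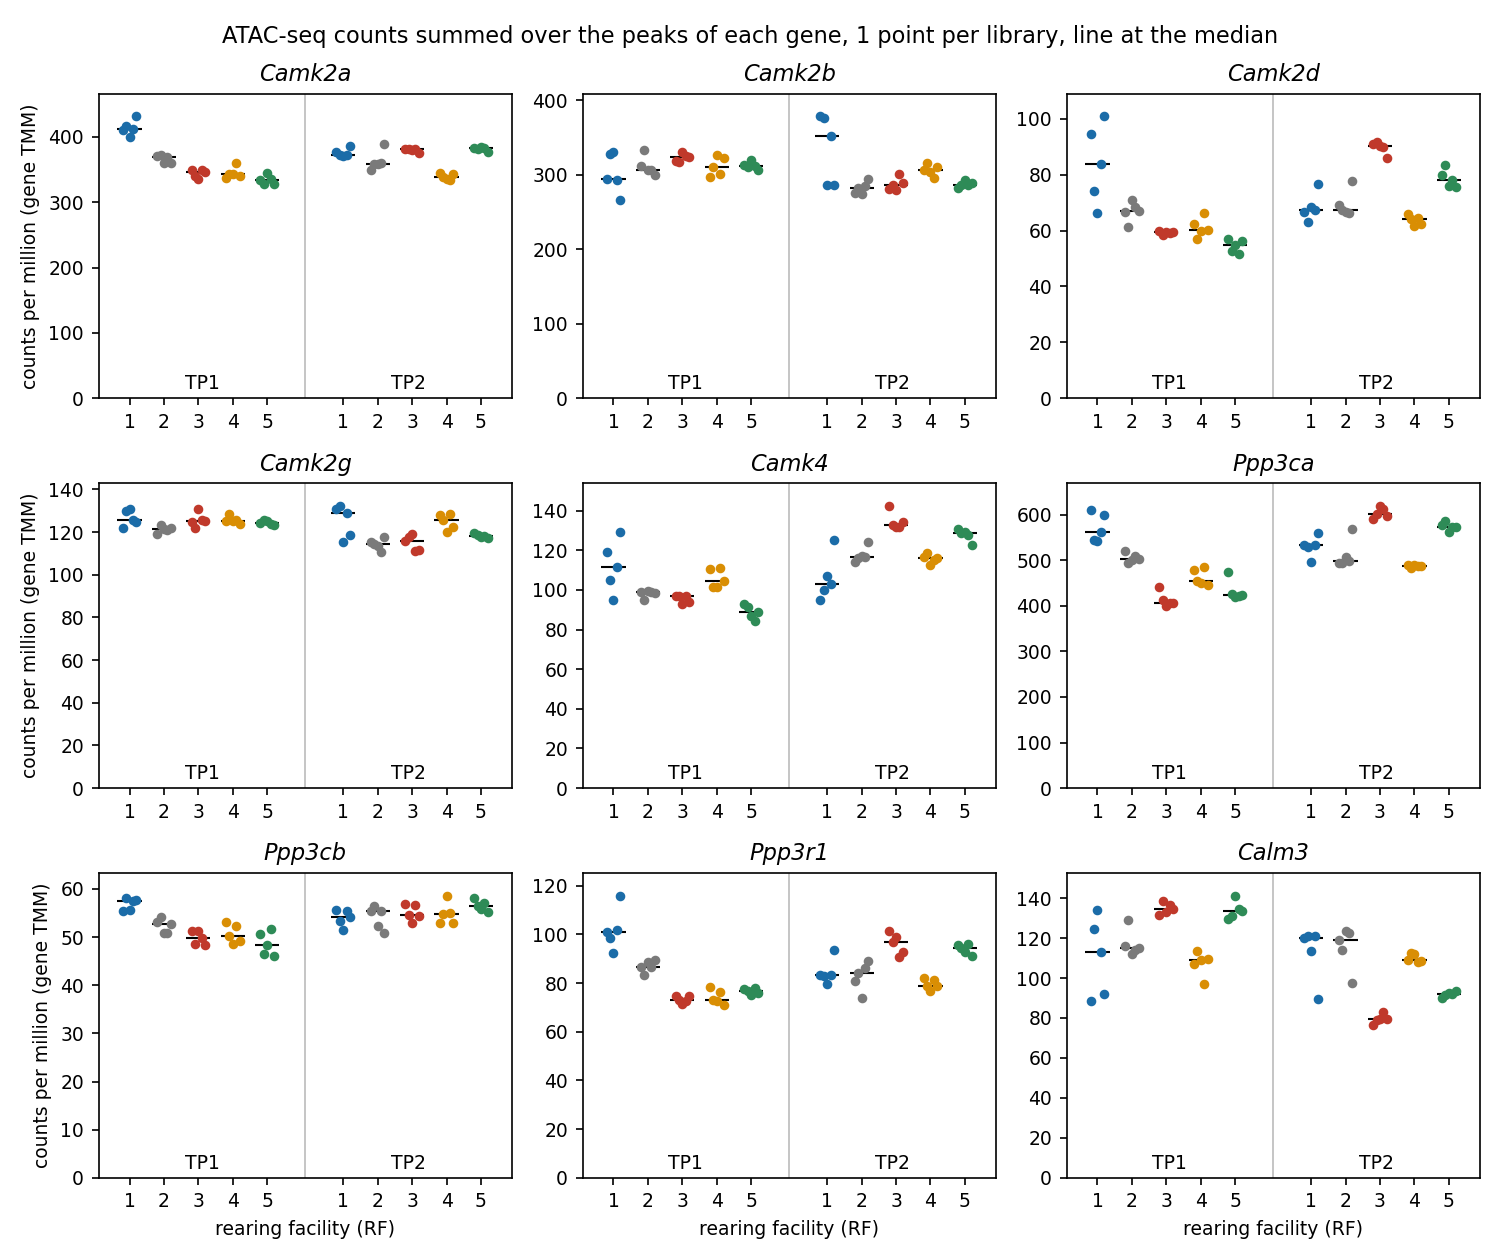
Counts summed over the peaks of each gene, in CPM scaled with the TMM factors of the gene sums, for each library (points) by rearing facility and time point, with a line at the group median. At TP1 all libraries of RF1 lie above the other facilities for Camk2a, Ppp3ca and Ppp3r1, and at TP2 all of RF3 lie below them for Calm3.

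Calm3, which encodes calmodulin, lies on the - strand of chr7:16915379-16924032. At TP1 the 5 libraries of RF1 had 88.6, 124, 134, 113 and 92.2 CPM, and those of RF4 107, 114, 109, 97.1 and 109. The libraries of RF3 lay between 131 and 139 CPM, those of RF5 between 129.6 and 141, and those of RF2 between 112 and 129. RF1 was thus the most spread group and overlapped all others, while RF4 lay below RF3 and RF5 without overlap. Calm3 was lower by a log2 fold change of -0.17 (SE 0.0530, adjusted p = 0.00636) in RF1 and -0.21 (SE 0.0533, adjusted p = 0.00206) in RF4. Without replicate 1 of every facility the value for RF1 was -0.08 (adjusted p = 0.213).

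At TP2 Calm3 was lowest in RF3, whose libraries had 76.4, 78.9, 79.5, 82.9 and 79.3 CPM. RF5 followed with 89.8, 91.4, 92.3, 92.2 and 93.5 CPM, and RF4 had 109, 113, 112, 108 and 108. RF1 had 119.9, 121, 113, 121 and 89.3 CPM, and RF2 119, 114, 124, 122 and 97.4, with replicate 5 the lowest in each. No library of RF3 reached the level of any other facility. RF3 differed from the other facilities by -0.42 (SE 0.0419, adjusted p = 4.74e-09), and from its nearest neighbour RF5 by -0.21 (SE 0.0513, adjusted p = 0.00695). No pair among RF1, RF2 and RF4 passed the same test, which takes a common spread over all libraries of TP2. In RF1, Calm3 was higher by 0.19 (SE 0.0405, adjusted p = 0.000886), the reverse of its sign at TP1.

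All 3 peaks of Calm3 shared the difference of RF3 at TP2, each with a log2 fold change of -0.52 (adjusted p between 4.65e-13 and 3.3e-09). At TP1 all 3 were higher in RF3 (0.27, 0.45 and 0.24, adjusted p of 0.000891 or less) and in RF5 (0.26, 0.23 and 0.27, adjusted p of 0.00302 or less). In RF1 and RF4 at TP1 they did not move together. The 2 peaks away from the start, at chr7:16912991-16915576 and chr7:16917300-16918961, were lower in RF1 by -0.38 (adjusted p = 5.57e-08) and -0.44 (adjusted p = 1e-07), whereas the peak over the start shown above, at chr7:16922639-16925012, differed by -0.02 (adjusted p = 0.817). In RF4 the peak at the start was lower by -0.48 (adjusted p = 2.67e-09; 0.02 with offsets fitted on abundance), and the other 2 differed by -0.07 and -0.05 (adjusted p = 0.328 and 0.565). The peak at the start also covers the end of Gm45972.

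Camk2d, the delta subunit of CaM kinase II (chr3:126595487-126846326, + strand), had the widest range between facilities. At TP1 the libraries of RF1 had 94.4, 74.0, 66.4, 83.8 and 101 CPM, against 61.3 to 71.1 in RF2, 58.4 to 59.9 in RF3, 57.1 to 66.4 in RF4 and 51.8 to 56.96 in RF5. RF1 was the highest but for its replicate 3, which fell inside the range of RF2. The log2 fold change of RF1 was 0.46 (SE 0.0502, adjusted p = 1.55e-08). RF1 differed from RF2, the next in order, by 0.31 (SE 0.0652, adjusted p = 0.000416). The neighbours further down, RF2 and RF4, RF4 and RF3, and RF3 and RF5, did not pass the same test. It takes a common spread over all libraries of TP1, and RF3 lay above RF5 without overlap.

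At TP2 the order had changed. RF3 was highest, with 91.0, 91.8, 90.2, 89.9 and 86.1 CPM, and RF5 second, with 79.7, 83.4, 76.0, 78.1 and 75.7. RF1 had 63.2 to 76.6 CPM, RF2 66.1 to 77.7 and RF4 61.7 to 65.8. RF3 overlapped no other facility and was higher by 0.38 (SE 0.0370, adjusted p = 2.8e-09), and it differed from RF5 by 0.20 (SE 0.0470, adjusted p = 0.00465). RF1 was now on the low side, at -0.14 (SE 0.0392, adjusted p = 0.00662), but this call ended with several alternatives, among them the scaling of the peak table (-0.09, adjusted p = 0.0718).

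Within Camk2d all 20 peaks had a positive log2 fold change in RF1 at TP1 and 17 in RF3 at TP2. The largest in RF1 at TP1 was at peak 12, inside the gene body (chr3:126722450-126724051). On the scale of the peak table it had 13.6, 12.1, 11.95, 12.8 and 16.9 CPM in the libraries of RF1 at TP1, against 5.05 to 10.6 in the other facilities. At TP2 it had 15.97, 14.7, 14.6, 14.9 and 13.2 in RF3 and 7.79 to 13.3 elsewhere, so that only its lowest library fell within the range of the others. The log2 fold changes were 0.88 (SE 0.0609, adjusted p = 4.25e-18) and 0.46 (SE 0.0712, adjusted p = 4.66e-07). The peak at the start shown above (chr3:126595462-126598409) was higher in RF1 at TP1 by 0.53 (SE 0.0535, adjusted p = 2.64e-12), but differed by 0.11 in RF3 at TP2 (adjusted p = 0.147).

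Camk2a, the alpha subunit and the best known marker of excitatory forebrain neurons among these genes, lies at chr18:60925307-60988152. At TP1 the libraries of RF1 had 410.1, 417, 399.8, 412 and 432 CPM, all above RF2 (359.6 to 372) and the other facilities (327 to 361). RF1 was higher by 0.25 (SE 0.0208, adjusted p = 2.64e-10), and all 19 peaks had a positive sign. At TP2 the levels were closer, with 371 to 385 CPM in RF1, 375 to 382 in RF3, 377 to 384 in RF5, 349 to 389 in RF2 and 334 to 344 in RF4. RF4 alone lay below the rest. The difference of RF3 at TP2 was 0.07 (SE 0.0220, adjusted p = 0.00518) and turned to -0.03 (adjusted p = 0.204) on the scale of the peak table.

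Camk2b encodes the beta subunit, which ties the kinase to actin, and lies on the - strand of chr11:5969629-6066357. It did not depend on the facility at TP1, where libraries ranged from 266 to 333 CPM with RF1 the most spread (294, 328, 331, 294 and 266). At TP2 the libraries of RF1 fell into 379, 376 and 353 CPM on the one hand and 286 and 287, replicates 3 and 5, on the other. All other facilities lay between 275 and 315 CPM. RF1 was higher by 0.20 (SE 0.0387, adjusted p = 0.000404), with all 23 peaks positive. Without replicate 1, 2 or 4 of every facility the call was lost (adjusted p = 0.0269, 0.0258 and 0.0154). Without the 3 libraries that lay apart the value was 0.34, but these include both low libraries of RF1, so a rise was fixed by leaving them out.

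Camk2g, the gamma subunit (chr14:20734873-20794157), was the most even of the kinase genes, with 119 to 131 CPM over all libraries of TP1 and 111 to 132 at TP2. None of its 10 pairwise comparisons passed at either time point. Its peaks at the gene ends also overlap Ndst2 and Gm30108, so their reads cannot be given to Camk2g alone.

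Camk4 (chr18:32934941-33195767) had 119, 105, 94.7, 112 and 129 CPM in RF1 at TP1, against 84.3 to 111 elsewhere. RF1 was higher by 0.20 (SE 0.0381, adjusted p = 6.53e-05) although its replicates 2 and 3 lay within the range of the others, and 20 of 27 peaks were positive. At TP2, RF3 had 142, 133, 132, 131 and 134 CPM and RF1 94.7, 100.1, 107, 103 and 125, the lowest group but for its replicate 5. RF3 was higher by 0.22 (SE 0.0367, adjusted p = 9.7e-06) and RF1 lower by -0.24 (SE 0.0386, adjusted p = 0.000131). RF5 had 122.6 to 130.7 CPM, below every library of RF3. Their difference still did not pass edgeR's test (0.08, SE 0.0465, adjusted p = 0.249), which takes a common spread over all libraries of TP2.

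Among the genes of calcineurin, Ppp3ca, the main catalytic subunit in the brain (chr3:136669714-136937727), had the smallest p at TP1. The libraries of RF1 had 611, 545, 542, 562 and 599 CPM, those of RF2 519, 494, 499, 510.2 and 504, those of RF4 446 to 486, those of RF5 419 to 475 and those of RF3 399 to 441. RF1 lay above every other library and RF2 above all of RF3, RF4 and RF5. RF1 was higher by 0.33 (SE 0.0221, adjusted p = 6.71e-12) and differed from RF2 by 0.17 (SE 0.0286, adjusted p = 4.95e-05).

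At TP2 the libraries of RF3 had 591, 602, 619, 612 and 597 CPM and those of RF5 578, 585, 561, 573 and 573. RF1 had 497 to 560.3 CPM, RF2 493 to 507 with replicate 5 at 569, and RF4 484 to 490.1. RF3 overlapped no other facility, and RF4 lay below them all. RF3 was higher by 0.22 (SE 0.0253, adjusted p = 4.7e-08), and on the scale of the peak table by 0.11 (adjusted p = 0.000391). Although RF3 lay above RF5 without overlap, their difference did not pass edgeR's test (0.08, SE 0.0324, adjusted p = 0.0883). That test takes a common spread over all libraries of TP2, not the spread of RF3 and RF5 alone.

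Ppp3r1, the calcium-binding regulatory subunit (chr11:17159298-17200380, + strand), followed Ppp3ca at TP1. RF1 had 101, 98.6, 92.5, 101.98 and 116 CPM, RF2 83.4 to 89.4, RF5 75.3 to 78.1, RF3 71.4 to 74.7 and RF4 71.2 to 78.3. RF1 overlapped no other facility and was higher by 0.38 (SE 0.0316, adjusted p = 1.78e-10), and RF4 was lower by -0.18 (SE 0.0331, adjusted p = 7.14e-05). At TP2, RF3 had 101, 97.1, 99.1, 90.7 and 92.6 CPM and RF5 91.2 to 96.0, against 73.8 to 93.7 in the other facilities. RF3 was higher by 0.19 (SE 0.0354, adjusted p = 4.54e-05), which on the scale of the peak table was 0.08 (adjusted p = 0.0395).

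Ppp3cb, the other catalytic subunit of the brain (chr14:20499364-20546573, - strand), moved less. RF1 had 55.3, 58.1, 55.7, 57.5 and 57.7 CPM at TP1 against 46.2 to 54.2 elsewhere, without overlap, and was higher by 0.17 (SE 0.0291, adjusted p = 1.56e-05). At TP2 all libraries lay between 50.9 and 58.6 CPM and no pair of facilities differed. Its peak at the start also covers 1810062O18Rik.

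**Figure D3:**
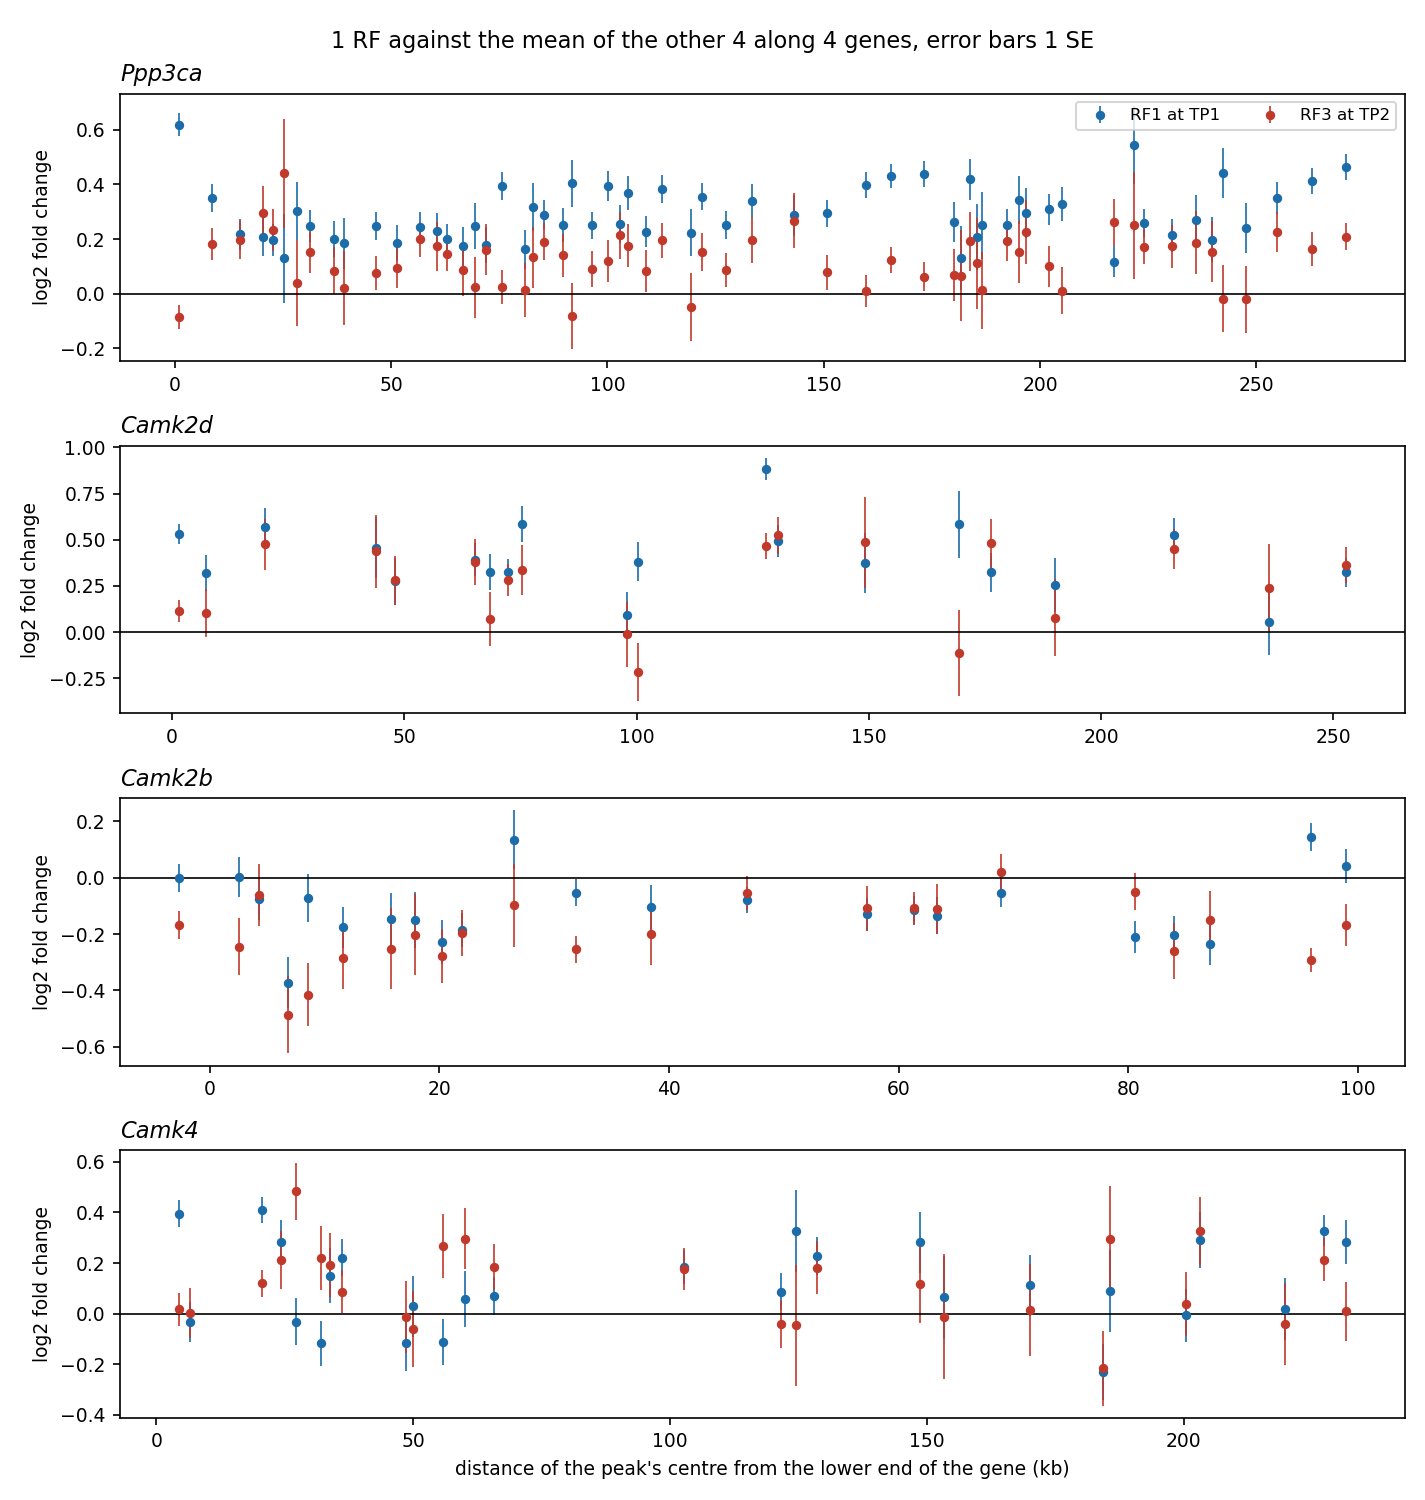
Log2 fold change (points, with 1 SE) of RF1 at TP1 (blue) and of RF3 at TP2 (red) against the mean of the other facilities, for each peak of Ppp3ca, Camk2d, Camk2b and Camk4, by the distance in kb of the peak's centre from the gene's lower coordinate. All 60 peaks of Ppp3ca and all 20 of Camk2d lie above 0 in RF1 at TP1, and 55 of 60 and 17 of 20 do in RF3 at TP2.

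Differences of 1 sign reached over whole genes and beyond them. In RF1 at TP1, all 60 peaks of Ppp3ca and all 9 of Ppp3r1 had a positive log2 fold change, while 93.0% of the 143 peaks within 1 Mb outside Ppp3ca and 94.2% of the 69 around Ppp3r1 did so as well. The median over these flanking peaks was 0.31 at Ppp3ca and 0.34 at Ppp3r1, against 0.26 and 0.20 over the peaks of the genes themselves. Around Calm3, 145 flanking peaks had a median of -0.43, and only 4.14% were positive. The flanks of Camk2d had a median of 0.28, against 0.38 for its own peaks. In contrast, the flanks of Camk2a, Camk2g and Ppp3cb had medians of 0.08, 0.02 and 0.02. Camk2g and Ppp3cb lie less than 1 Mb apart on the same chromosome, so their flanks share many peaks and are not separate regions.

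The same was seen in RF3 at TP2. Flanking peaks had medians of 0.23 at Ppp3ca and Ppp3r1, 0.14 at Camk4, 0.13 at Camk2d and -0.36 at Calm3, where 0.69% were positive. Of the flanking peaks of Calm3, 93.1% depended on the facility at TP1 and 75.2% at TP2, more than at any other of the 9 genes. Those of Ppp3cb (44.8% and 13.2%) and Camk2g (41.8% and 12.7%), which share many peaks, were called least.

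When the mean of the flanking peaks was taken out of the summed counts, 9 of the 9 genes depended on the facility at TP1, 7 at TP2 and 8 showed an interaction, against 74.1%, 29.7% and 54.9% of all genes. The single differences changed more than these counts. In RF1 at TP1, Camk2a kept 0.17 (adjusted p = 4.59e-14), Camk2d 0.18 (adjusted p = 7.93e-09), Ppp3cb 0.16 (adjusted p = 3.62e-07), Camk4 0.10 (adjusted p = 3.89e-06) and Ppp3ca 0.05 (adjusted p = 0.00143), while Ppp3r1 fell to 0.04 (adjusted p = 0.244) and Calm3 turned from -0.17 to 0.28 (adjusted p = 4.89e-19). Calm3 was thus lower in RF1 than the mean of the other facilities, a call lost without replicate 1, but higher relative to its surroundings. Taken singly, RF1 did not pass edgeR's test against RF4 (0.03, SE 0.0665, adjusted p = 0.683) or RF2 (-0.10, SE 0.0662, adjusted p = 0.206).

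In RF3 at TP2, Camk2d kept 0.16 (adjusted p = 0.000138) and Calm3 -0.12 (adjusted p = 0.00295) relative to the flanks. Ppp3ca turned to -0.07 (adjusted p = 0.0117), Ppp3r1 to -0.12 (adjusted p = 0.0711) and Camk2a to -0.01 (adjusted p = 0.698), and Camk4 was at 0.00 (adjusted p = 0.984). In RF1 at TP2, Camk2b kept 0.12 (adjusted p = 0.00241), Ppp3r1 was at 0.19 (adjusted p = 0.0036), while Camk4 (-0.05, adjusted p = 0.291), Camk2d (0.00, adjusted p = 0.965) and Calm3 (0.00, adjusted p = 0.950) no longer differed. At the level of peaks, an offset per 1 Mb of genome left 62 of the 180 peaks depending on the facility at TP1 and 13 at TP2, against 45.6% and 9.15% of all peaks.

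**Figure D4:**
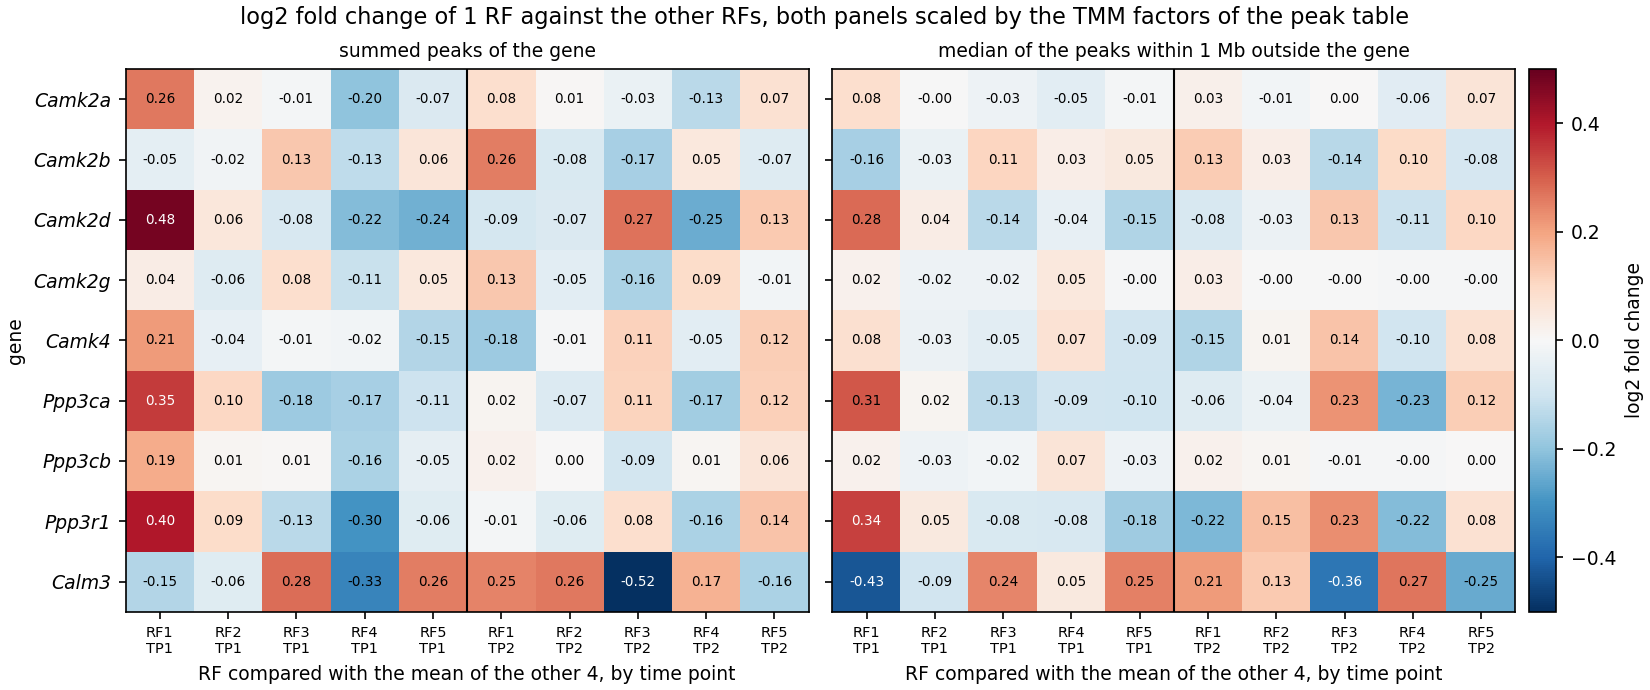
Log2 fold change of each facility against the mean of the other 4 at TP1 and TP2, for the summed counts of each gene (left) and as the median of the peaks within 1 Mb outside it (right), both scaled by the TMM factors of the peak table, from blue (lower) to red (higher). In RF1 at TP1 the flanks of Ppp3ca (0.31) and Ppp3r1 (0.34) are nearly as red as the genes, the flanks of Camk2a (0.08) and Ppp3cb (0.02) are paler, and those of Calm3 (-0.43) are bluer than the gene.

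Peaks at the ends of the genes were then set beside the others. These were the 11 peaks at the start of a gene or, for Camk2a, Camk2g and Ppp3ca, whose strand was not given in the tables used here, at either end. Camk4 had no peak within 2 kb of its ends. In RF4 at TP1 all 11 had a lower mean log2 level than in the other facilities, with a median difference of -0.38, while the other 169 peaks of these genes had a median of -0.05. Over 13243 peaks at RefSeq promoters the median was -0.22, and 82.7% of them were below 0. The difference of RF4 at the 5 starts printed or described above was -0.60 at Ppp3r1, -0.48 at Calm3, -0.46 at Camk2d, -0.39 at Ppp3cb and -0.35 at Camk2b, as log2 fold change, each with an adjusted p of 1.45e-07 or less. With offsets fitted on abundance, Calm3 turned to 0.02 and Camk2b to 0.07, and Camk2g peak 10 to 0.14.

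The largest difference at a gene end was at Ppp3ca peak 1 (chr3:136669137-136672093). At TP1 it had 85.1, 99.0, 89.8, 93.4 and 100.1 CPM (scale of the peak table) in RF1 and 43.2, 47.4, 45.9, 49.3 and 43.3 in RF4, with the other facilities between 60.2 and 77.7. Neither RF1 nor RF4 overlapped another facility. RF1 was higher by 0.62 (SE 0.0424, adjusted p = 3.22e-18) and RF4 lower by -0.68 (SE 0.0468, adjusted p = 8.69e-17). At TP2 RF1 no longer stood out, with 57.5 to 74.3 in RF1, 71.8 to 77.9 in RF5, 62.6, 59.7, 64.9, 60.9 and 61.7 in RF3 and 52.5 to 58.1 in RF4. RF3, whose summed counts of Ppp3ca were higher, had -0.08 here (adjusted p = 0.144). RF4 was still lower, by -0.27 (SE 0.0441, adjusted p = 8.33e-06), and RF5 was higher by 0.24 (SE 0.0419, adjusted p = 7.49e-05).

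In RF1 at TP1 the 11 peaks at gene ends had a median difference of 0.27, against 0.04 over the promoter peaks and 0.18 over the other peaks of these genes. In RF3 at TP2 they had a median of -0.09, against -0.15 over promoter peaks, while the other 169 peaks had 0.08 and the whole table had 0.01.

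**Figure D5:**
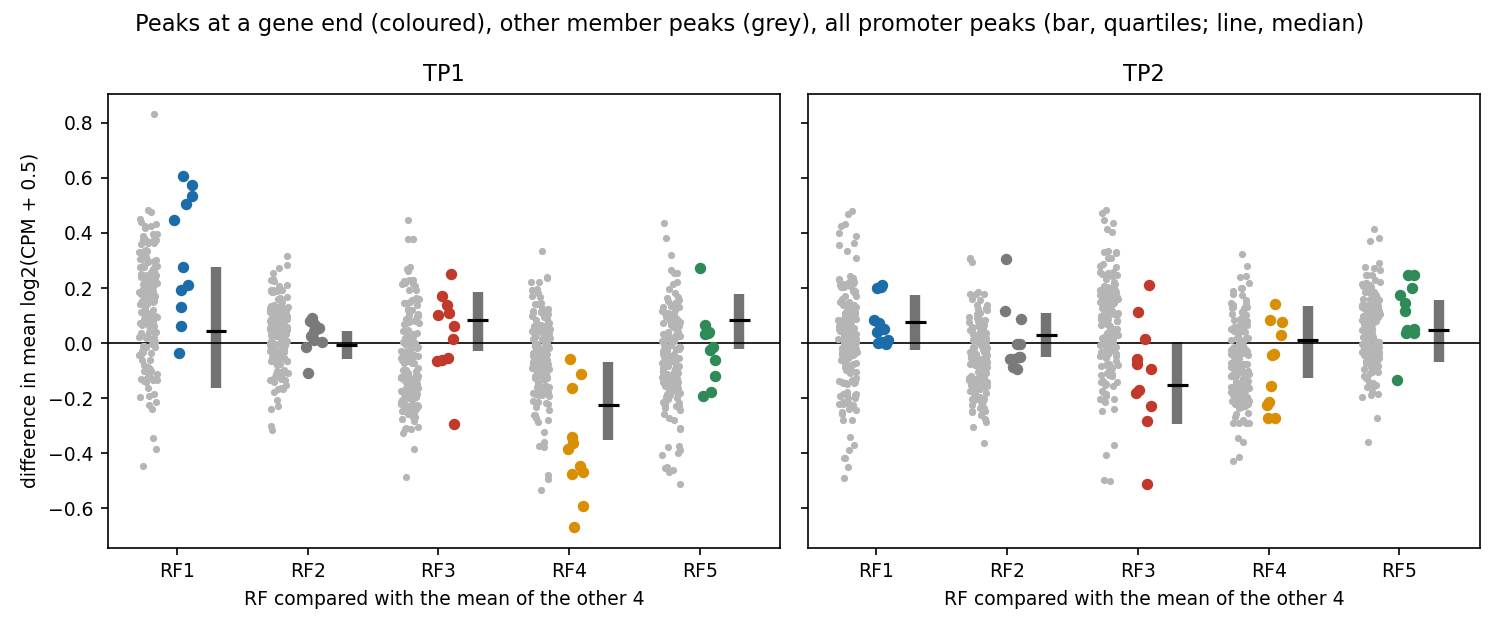
Difference in mean log2 (CPM + 0.5) of each facility from the mean of the other 4, at TP1 and TP2, for the 11 peaks at gene ends (coloured points), the other 169 peaks (small grey points) and all promoter peaks (bar from the lower to the upper quartile, line at the median). In RF4 at TP1 all 11 coloured points lie below 0.

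Markers moved with some of these differences. The summed level at the starts of the 5 neuronal markers was 209 to 230 CPM on the scale of the peak table in the libraries of RF1 at TP1 and 138 to 142 in RF4, with 167 to 192 in the other facilities, so that RF1 was highest and RF4 lowest, as at Ppp3ca peak 1. Inhibitory neuron markers had 62.0 to 70.5 in RF1 and 46.7 to 53.0 in RF4, and dentate granule cell markers 68.3 to 70.9 and 40.7 to 43.1. The excitatory markers overlapped between RF1 (63.3 to 88.6) and RF4 (62.5 to 70.6). Astrocyte markers had 21.7 to 29.0 in RF1 and 17.6 to 19.1 in RF4, oligodendrocyte markers 39.7 to 42.9 and 30.4 to 33.6, and microglial markers 31.5 to 35.8 and 37.5 to 45.5. In RF3 at TP2 the excitatory markers had 52.7 to 57.5 and the inhibitory ones 44.9 to 46.6, both below every other facility, but the 5 neuronal markers had 164 to 173 and the dentate granule cell markers 54.2 to 56.9, above RF4 (46.0 to 49.98) for the latter, and the astrocyte markers had 21.4 to 25.6, within the range of the others. Marker levels are sums over peaks at gene starts, and such peaks moved table-wide. Of all peaks at RefSeq promoters, 82.7% were lower in RF4 at TP1 (median -0.22) and 74.5% in RF3 at TP2 (median -0.15). In RF1 at TP1 their median was 0.04. Whether the markers moved beyond other promoters, and the part of these levels in the results above, was not tested.

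Among 28 other genes of the pathway, 27 could be tested by summed counts. At TP1, 21 (77.8%) depended on the facility, at TP2 18 (66.7%), and 23 (85.2%) showed an interaction, against 79.6%, 60.3% and 79.1% of all genes. In RF1 at TP1, 7 were higher, among them Calm2, Camk1g, Pnck, Akap5, Nrgn and Creb1, and 8 lower, namely Camk1, Camk1d, Camkk1, Camkk2, Rcan3, Nfatc1, Nfatc2 and Nfatc4. In this contrast 64.6% of all genes passed. Camkk1 and Camkk2 encode upstream kinases of CaM kinase IV, and the NFAT factors are dephosphorylated by calcineurin. The median log2 fold change over all 27 genes was -0.06, against 0.20 for the 9 genes above and -0.01 for all genes.

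Nfatc2 and Creb1 had among the smallest p-values of these genes at TP1. Creb1, the target of CaM kinase IV, was higher in RF1 by 0.44 (SE 0.0337, adjusted p = 5.91e-11) and lower in RF4 by -0.26 (SE 0.0356, adjusted p = 2.32e-06). Nfatc2 went the other way, with -0.36 (SE 0.0326, adjusted p = 8.23e-10) and 0.28 (SE 0.0312, adjusted p = 1.19e-07).

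At TP2 the smallest belonged to Camkv, Nfatc2 and Camkk1. In RF3 at TP2 only Creb1 was higher, while Calm2, Camk1, Camkk1, Camkk2, Camk2n1, Camk2n2, Camkv and Nfatc2 were lower. In this contrast 41.4% of all genes passed. These calls are on the scale of the gene sums only. On the scale of the peak table the median of all genes in this contrast was -0.09. Camkv, a kinase-like protein of synapses, was lower by -0.30 (SE 0.0356, adjusted p = 8.03e-08) and Camkk1 by -0.24 (SE 0.0385, adjusted p = 6.98e-06). The median over the 27 genes was -0.09 in RF3 at TP2, against 0.07 for the 9 genes and 0.01 for all genes.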

How the data were processed

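ATAC-seq of NeuN-positive nuclei was available for 50 libraries (5 rearing facilities, 2 time points, 5 mice each, grouped by the labels). Per the labels and the study's methods, the authors aligned reads with Bowtie2, marked duplicates with Picard 1.140, called peaks in each library with MACS2 2.1.4 with duplicates kept, merged peaks found in at least 3 of 5 libraries of a group, and deposited raw counts per merged peak, without duplicates. A second deposited table, labelled as normalised, held the same values and was not used. The peak lists the authors deposited for each library give −log10 q-values and were used only to count which libraries listed a peak. The merged list gives the number of groups per peak.

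Members and gene lists were chosen with earlier results of these data known. edgeR 4.0.16 (R 4.3.3) was fitted to all peaks, and to counts summed per annotated gene: filterByExpr, TMM, quasi-likelihood with robust estimation, facility plus replicate number within each time point, Benjamini-Hochberg at 0.01. The replicate number stood for the sorting batch of the study's methods. Deviations of same-numbered libraries correlated by 0.0652 at TP1 and 0.000843 at TP2 on average, over 0.1 in 14 and 1 of 50 pairs, so the numbers were not shown to pair the libraries. Peaks named are, per gene, the one at the start and those with the smallest p in each of the 3 tests, 16 in all. For genes with no strand in the tables the rule took the end with more counts, and the peaks at both ends are given instead. Pathway genes given with values are among the 3 with the smallest p at each time point, and some genes of the lists are not reported here. Levels are counts scaled to equal library totals (CPM), with a pseudocount of 0.5 where log2 is given. The fit was also run on simulated counts of independent libraries with equal dispersion and no batches or near-identical libraries. The data differ from that setting, and the outcome is not reported here. Libraries are from separate mice per the labels. Total counts set the precision, which is lower at TP2. Alternatives were DESeq2 1.42.0, RLE size factors, no filter, loess offsets, 1 Mb offsets, summed near-identical libraries, left-out libraries, other gene margins, and, added after seeing the data, offsets from flanking peaks and the scale of the peak table. Promoters of 5 members were matched in RefSeq (GRCm38.p6).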

Additional observations from a re-analysis of the deposited data

Results flagged for a closer look

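At 8 of the 9 genes the differences between facilities in summed counts changed from TP1 to TP2 (interaction of facility and time point over 50 libraries, edgeR's quasi-likelihood test, Benjamini-Hochberg adjusted). The adjusted p was 1.24e-16 for Ppp3ca, 1.77e-12 for Camk2d, 2.54e-12 for Ppp3r1, 8.41e-12 for Calm3, 8.73e-11 for Camk2a, 2.64e-10 for Camk4, 5.98e-05 for Ppp3cb and 0.000156 for Camk2b. The same test called 101 of the 180 peaks. Over the whole tables it called 79.1% of genes and 54.4% of peaks. Time point and sequencing batch cannot be told apart here. The interaction test, here and above, had no term for the litter, although the mice of TP2 were littermates of those of TP1.

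In 14 of 120 groups of 5 libraries, 1 library lay farther from the others than Dixon's criterion allows. Chance gives about 1 in 20 for independent groups. These groups reuse the same libraries for gene sums and for peaks within them, so their number cannot be compared with it. At TP2, replicate 5 of RF2 was the highest of its group for Camk2a (389 CPM), Camk2d (77.7 CPM) and Ppp3ca (569 CPM). Replicate 5 of RF1 at TP2 was the highest for Ppp3r1 (93.7 CPM) and the lowest for Calm3 (89.3 CPM), also at Calm3 peak 3 (60.5 CPM on the scale of the peak table). Replicate 5 of RF1 and of RF2 lay near RF5 of TP2 for Camk2d (76.6 and 77.7 CPM, RF5 75.7 to 83.4). For Ppp3ca they had 560.3 and 569 CPM (RF5 561 to 585), but for Ppp3cb 54.2 and 50.9 CPM, below RF5 (55.3 to 58.2). The serial numbers in the titles of both libraries were those of RF5 libraries at TP1. The reason was not tested. At TP1, replicate 4 of RF4 was the highest for Camk2a (361 CPM), replicate 2 of RF2 the lowest for Camk4 (95.0 CPM) and the highest for Calm3 (129 CPM), and replicate 1 of RF5 the highest for Ppp3ca (475 CPM). Replicate 1 of RF3 was the highest for Camk4 at TP2 (142 CPM) and the lowest at Calm3 peak 3 at TP1 (96.4 CPM on the scale of the peak table). At Camk2d peak 12, replicate 5 of RF5 was the lowest at TP1 (5.05) and replicate 3 of RF4 the highest at TP2 (11.4 CPM on the scale of the peak table).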

How the results depend on the processing

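An offset per 1 Mb of genome moved all 5 counts of peaks, from 110 to 62 and from 48 to 13 for the facility at TP1 and TP2, from 46 to 19 and from 20 to 2 for DARs, and from 101 to 42 for the interaction. Of all peaks, 45.6%, 9.15%, 19.4%, 3.33% and 25.4% passed with this offset. Near-identical libraries summed gave 17 and 12 at TP2, and leaving out the 3 libraries that lay apart gave 94 and 44. Leaving out 1 replicate number at a time gave 17 to 67 peaks for the facility and 11 to 35 DARs at TP2, 87 to 103 and 39 to 51 at TP1, and 76 to 105 for the interaction. DESeq2, RLE size factors, no filter, loess offsets and other gene margins kept these counts within 1.5 times. Without the replicate block they were 103, 45, 49, 18 and 101. Of 20 called gene sums in RF1 and RF4 at TP1 and RF1 and RF3 at TP2, the fit without the block lost that of Calm3 in RF1 at TP1 (-0.16, adjusted p = 0.0157 by edgeR), and near-identical libraries summed lost 6, namely Calm3 in RF1 and RF4 and Camk2a in RF4 at TP1, Calm3 and Camk2d in RF1 at TP2, and Camk2a in RF3 at TP2. Leaving out replicate 1, 2 or 4 lost 6 each, replicate 3 2 and replicate 5 1, at Calm3, Camk2a, Camk2b, Camk2d and Camk4, with no sign turned. The 10 tested without the 3 libraries all passed, but leaving out libraries that lie apart narrows the spread and by itself favours more calls.

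Signs turned under the 1 Mb offset for Calm3 (0.28) in RF1 at TP1 and its peak 1 (0.0520), for Camk2d (0.0665) and Camk4 (0.0472) in RF1 at TP2, and for Camk2a (-0.0250), Camk4 (-0.00962), Ppp3ca (-0.0126) and Ppp3r1 (-0.0950) in RF3 at TP2. With the flanks as offset they turned for Calm3 in RF1 at TP1 (0.28), Camk2d in RF1 at TP2 (0.0028) and, in RF3 at TP2, Camk2a (-0.0135), Ppp3ca (-0.0702) and Ppp3r1 (-0.12). On the scale of the peak table Camk2a in RF3 at TP2 turned to -0.0329. Loess offsets turned Camk2b peak 22 (-0.0513) and Camk2a peak 19 (-0.0129) in RF1 at TP1, and Calm3 peak 3 (0.0198), Camk2b peak 12 (0.21), Camk2b peak 22 (0.0718) and Camk2g peak 10 (0.14) in RF4 at TP1. The causes were not tested.

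Sorting, depth and the few mice per group limit these values. Depth was lower at TP2, and p-values measure the spread between libraries, some of which were near-identical. Reads of overlapping genes cannot be split.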

Other observations

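The peak lists of the single libraries give another view of the same 180 peaks. Of these, 25 (13.9%) overlapped a listed peak in all 50 libraries, among them all 3 of Calm3, 5 of 19 of Camk2a, 3 of 10 of Camk2g, 5 of 60 of Ppp3ca and 2 of 27 of Camk4. The same share over all peaks is not given here, so whether this is usual cannot be told. The 16 peaks named for the tests above were all among them. The number listed per library was 122 to 154 in RF1, 117 to 156 in RF2, 103 to 115 in RF3, 91 to 125 in RF4 and 112 to 140 in RF5 at TP1, and 58 to 135 at TP2. A peak of Camk2d was listed on average in 4.1 of the 5 libraries of RF1 at TP1 and in 1.9 of RF5. At TP2 the average was 3.25 in RF5, 3.1 in RF3 and 1.95 in RF4. Depth was not equal between libraries and its part in these numbers was not tested.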
